A study of Mus musculus with 9 samples.

Results

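Collagens are the chief structural proteins of the extracellular matrix, and each collagen molecule is a triple helix wound from chains that are encoded by separate genes. The chain genes were taken from the deposited table of gene counts as every protein-coding gene whose symbol has the form Col, a number, a and a number (Col1a1, Col4a2 and so on), which gave 44 of 55401 genes. Of these, 11 encode fibrillar chains and 6 encode chains of type IV collagen, the network collagen of basement membranes, and the other 27 belong to smaller classes. The samples were cultures of primary neonatal mouse ventricular myocytes (NMVMs), heart muscle cells isolated from wild-type C57BL/6J mice aged 1 day. Each of 3 groups had 3 libraries of poly(A) RNA. The control cultures stayed at normal oxygen in complete medium (DMEM with 10% FBS). The hypoxia cultures were washed, given DMEM that lacked both glucose and serum, and closed in an AnaeroPack chamber for 6 h. The hypoxia + rSRGN cultures were handled in the same way with recombinant SRGN (rSRGN), the protein serglycin, added for those hours at a dose that the labels do not state. In any comparison with control, low oxygen, loss of glucose, loss of serum and the wash cannot be told apart. The labels do not say whether replicates were separate isolations, so the p-values measure the spread between these libraries, which may be technical.

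Fibrillar collagens (types I, II, III, V, XI, XXIV and XXVII) assemble end to end and side by side into the fibers that carry tension. Type I is built from the products of Col1a1 and Col1a2, and type III from Col3a1 alone. In the heart, fibroblasts are the main makers of both. Type IV collagen does not form fibrils but a sheet-like mesh that joins laminin, nidogen and perlecan under endothelial cells and around each cardiomyocyte, and its common form contains the products of Col4a1 and Col4a2. Before secretion, prolines and lysines of all these chains are hydroxylated in the endoplasmic reticulum, which needs molecular oxygen.

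The 44 chains took 1.52% to 1.80% of all counts in control, 2.73% to 3.36% in hypoxia and 3.26% to 3.38% in hypoxia + rSRGN, with total counts of 21669017 to 22781557, 16583985 to 18148474 and 16640239 to 20826701 per library. Every hypoxia and hypoxia + rSRGN library had a larger collagen share than any control library. Col1a1, Col1a2 and Col3a1 together held 49.3%, 54.5% and 51.7% of the collagen counts of the 3 groups, and with Col4a1 and Col4a2 added they held 70.3%, 74.5% and 73.0%. Of the 44 chains, 39 had enough counts to be tested. Col6a4, Col6a5, Col22a1, Col25a1 and Col28a1 were left out of the tests with 2 to 33 counts summed over the libraries of a group. Levels are given as CPM (counts scaled to a library total of 1000000 after TMM scaling), and levels of different genes are compared only after division by exonic length, as CPM per kilobase. A gene was called higher or lower when the quasi-likelihood test of edgeR gave an adjusted p below 0.05 and the fold change was at least 1.5, which is 0.585 on the log2 scale. Fold changes are stated as log2 values with a standard error (SE) derived from the test statistic.

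In hypoxia against control, 20 of the 39 tested chains were called higher and 1 was called lower. Over all 16762 genes tested, 26.4% were called higher and 25.1% were called lower in this comparison. The median log2 fold change was 0.66 over the chains and 0.05 over all genes. The fibrillar chains accounted for 9 of the 20 higher calls and the type IV chains for 1 higher and 1 lower call. In these bulk libraries, a change in the number of cells of a type and a change in RNA per cell cannot be told apart. In hypoxia + rSRGN against hypoxia, 3 chains were called higher and 0 lower by edgeR and by DESeq2, with 1 below 0 at an unadjusted p below 0.05, and with 2.27% of all genes called higher and 0.859% called lower. The median log2 fold change of the chains was 0.15, against -0.03 for all genes. In hypoxia + rSRGN against control, 21 chains were called higher and 0 lower by edgeR and by DESeq2, with 1 below 0 at an unadjusted p below 0.05, where 24.1% and 24.7% of all genes were called higher and lower. The comparisons share libraries, so their values are set side by side here and no likeness between them is read as a result.

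**Figure D1:**
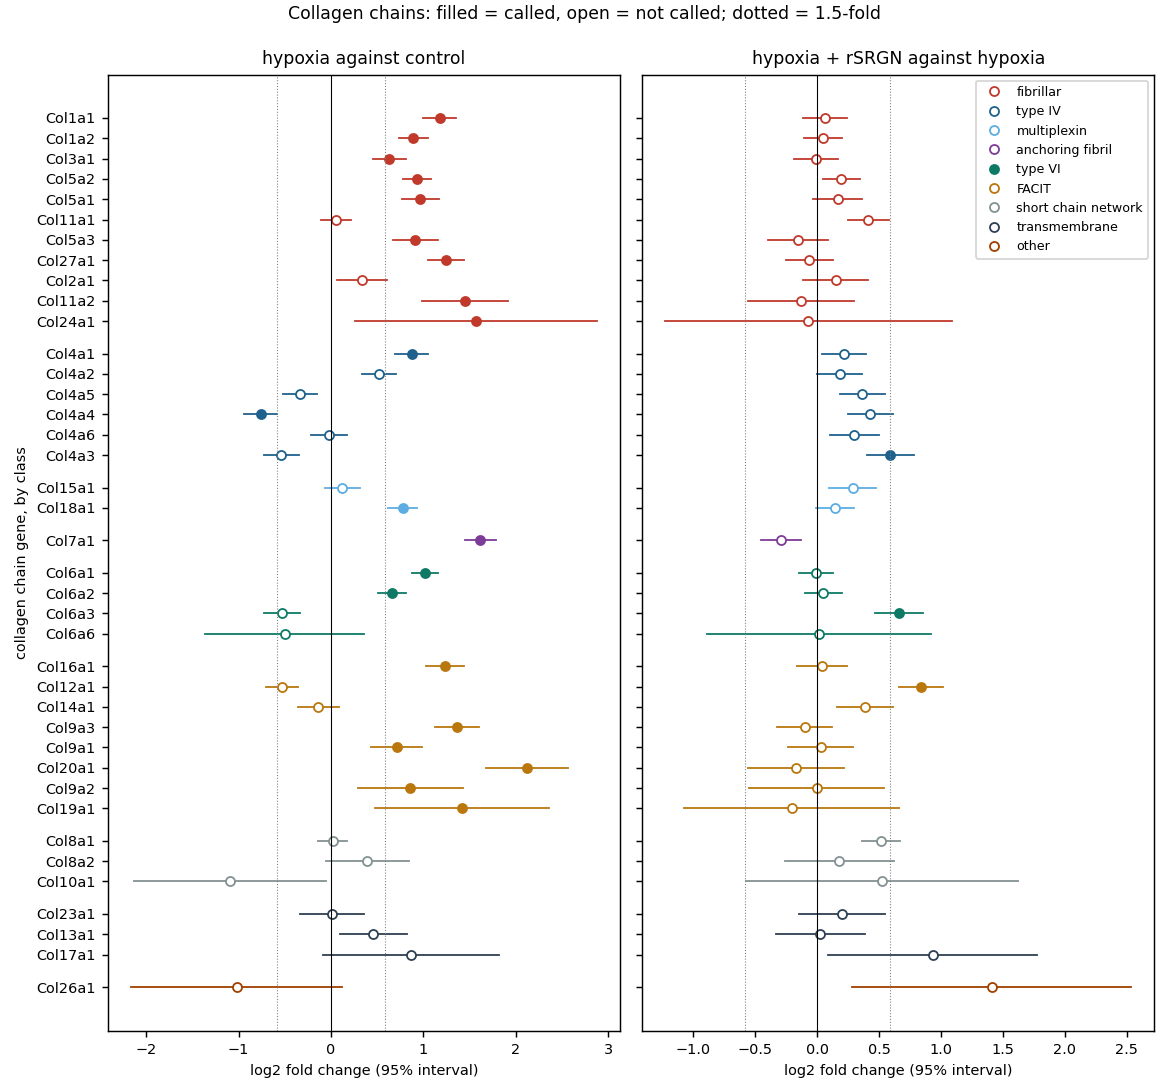
Log2 fold change (x axis) of the 39 tested collagen chains (y axis, grouped by class) in hypoxia against control and in hypoxia + rSRGN against hypoxia, 3 libraries per group. Points are fitted values, lines are 95% intervals, filled points are called and dotted lines mark a fold change of 1.5. On the left, 9 of 11 fibrillar chains are filled and to the right of 0, while the type IV chains run from -0.76 to 0.87. On the right, the filled points are Col12a1, Col6a3 and Col4a3.

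All 11 fibrillar chains had enough counts to be tested, and 9 of them were called higher in hypoxia than in control, against 26.4% of all genes. The median log2 fold change of the 11 was 0.93, and the values ran from 0.05 to 1.57. In control, the levels per length of the major chains were 548 ± 66.4 CPM per kilobase for Col1a1, 260.0 ± 28.2 for Col3a1 and 197 ± 16.01 for Col1a2 (SD, n = 3), and the minor chains Col5a1 and Col5a2 had 99.6 ± 14.99 and 89.8 ± 5.600. The exonic length of Col1a2 includes exons of longer transcripts, so its level per length is a low estimate, and the same can hold for any other chain. The change of a chain between groups does not depend on this length.

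Col1a1 (GRCm38 chr11:94936224-94953042, plus strand) encodes the main chain of type I collagen and was the most abundant chain. It had 3097, 3914 and 3769 CPM in control, 8695, 7213 and 8407 in hypoxia and 8311, 8487 and 8598 in hypoxia + rSRGN. Every hypoxia library lay above every control library, and the log2 fold change was 1.17 (SE 0.09, adjusted p = 1.66e-10), a 2.26-fold rise. Col1a2 (chr6:4504814-4541544, plus strand), the partner chain of type I, had 2228, 2505 and 2614 CPM in control, 4811, 4220.3 and 4591 in hypoxia and 4623, 4843 and 4618 in hypoxia + rSRGN. It rose by 0.89 (SE 0.08, adjusted p = 1.62e-09) on the log2 scale, again with no overlap between hypoxia and control. The ratio of Col1a1 to Col1a2 per kilobase was 2.63 to 2.96 in control, 3.24 to 3.47 in hypoxia and 3.32 to 3.52 in hypoxia + rSRGN. The control range of this ratio did not reach the range of either treated group, and the treated groups overlapped.

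Col3a1 (chr1:45311538-45349706, plus strand), the chain of type III collagen, had 2274, 2555 and 2827 CPM in control, 4362, 3455 and 4027 in hypoxia and 3867, 4036 and 3878 in hypoxia + rSRGN. It was higher in all hypoxia libraries than in any control library, with a log2 fold change of 0.63 (SE 0.09, adjusted p = 2.2e-06). This was the smallest rise among the called fibrillar chains, close to the fold limit, and it fell under that limit without control replicate 1 (0.53), without hypoxia replicate 1 (0.55) and with a filter of at least 1 count over all libraries (0.58). The ratio of Col1a1 to Col3a1 per kilobase was 1.99 to 2.29 in control, 2.98 to 3.12 in hypoxia and 3.14 to 3.32 in hypoxia + rSRGN. It was higher in every hypoxia library than in any control library. The promoter of Col3a1 is shown to set beside the start region of Col4a1 and Col4a2. It was chosen because its start in RefSeq is the start of the gene in the deposited table and its window holds a TATAAA match. As most fibrillar windows lack that match, it does not stand for the class, and Col1a1 had no promoter window. The stretch holds the 250 bases before the start, chr1:45311288-45311537 of GRCm38.p6 on the plus strand, from the RefSeq table, with TATAAA in capitals.
Col3a1: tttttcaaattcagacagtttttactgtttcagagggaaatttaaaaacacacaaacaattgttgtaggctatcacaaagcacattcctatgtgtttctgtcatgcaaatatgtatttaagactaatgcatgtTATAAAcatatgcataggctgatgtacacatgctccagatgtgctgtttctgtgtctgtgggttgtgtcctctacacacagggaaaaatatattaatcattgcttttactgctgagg
The TATAAA begins 117 bases before the start. Over the promoter windows of all genes (250 bases before to 50 after the start, both strands searched), 13.6% of 32851 windows held TATAAA, and 5 of 38 windows of 35 matched chains did, 2 of 8 fibrillar and 0 of 5 type IV windows among them. CCAAT was found in 37.4% of all windows and in 13 of the 38. GGGCGG, the GC box, was in 35.7% of all windows and 23 of the 38. The hypoxia response core ACGTG was in 19.6% of all windows and 5 of the 38, and the related GCGTG was in 32.4% and 10. GCGTG and ACGTG differ in their first letter and cannot match at the same place on a strand. A match to such letters describes the window and is not evidence of a bound site.

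Col5a1 and Col5a2 encode chains of type V collagen, which lies inside type I fibrils and sets their diameter. Col5a1 (chr2:27886425-28039514) had 704, 919 and 934 CPM in control, 1849.6, 1439.7 and 1709 in hypoxia and 1802, 1959 and 1847 in hypoxia + rSRGN. Col5a2 (chr1:45374321-45503282), the neighbor of Col3a1 on chromosome 1 with 24614 bases between them, had 801, 879.7 and 903 CPM in control, 1742, 1506 and 1688 in hypoxia and 1862, 1956 and 1832 in hypoxia + rSRGN. Both rose without overlap between hypoxia and control, by 0.97 (SE 0.10, adjusted p = 1.62e-08) and 0.93 (SE 0.08, adjusted p = 3.78e-10) on the log2 scale. Their ratio per kilobase stayed between 0.986 and 1.19 over all 9 libraries. Col5a3 (chr9:20770050-20815067), another type V chain at a lower level, had 33.5, 44.8 and 52.8 CPM in control, 93.6, 69.7 and 82.5 in hypoxia and 66.01, 76.1 and 78.8 in hypoxia + rSRGN. It rose by 0.91 (SE 0.12, adjusted p = 1.04e-06), and its hypoxia libraries all lay above control.

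Col27a1 (chr4:63214004-63334991), a fibrillar chain best known from cartilage, had 12.5, 13.9 and 14.5 CPM in control, 35.1, 30.8 and 30.7 in hypoxia and 31.5, 31.2 and 29.7 in hypoxia + rSRGN. Its log2 fold change in hypoxia was 1.24 (SE 0.10, adjusted p = 2.85e-10), larger than that of Col1a1 by value but with overlapping intervals (1.04 to 1.44 and 0.99 to 1.36). Col11a2 and Col24a1 were called at low levels. Col11a2 (chr17:34039437-34066685) averaged 2.36 CPM in control and 6.48 in hypoxia, a log2 fold change of 1.45 (SE 0.24, adjusted p = 1.1e-05). Col24a1 (chr3:145292472-145552011) averaged 0.219 and 0.652 CPM, its groups overlapped, and its call (log2 fold change 1.57, SE 0.67, adjusted p = 0.0403) was lost in DESeq2 (adjusted p = 0.053), with the filter of at least 1 count over all libraries (edgeR, adjusted p = 0.0598) and when any of 6 libraries was left out, control replicates 1 and 2, hypoxia replicates 1 and 3 and hypoxia + rSRGN replicates 1 and 3, with values of 1.07 to 1.58.

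The fibrillar chains that were not called were Col11a1 and Col2a1. Col11a1 (chr3:114030540-114220718), a type XI chain that co-assembles with type V chains, had 168, 183 and 206 CPM in control, 204, 185 and 188 in hypoxia and 247, 285 and 237 in hypoxia + rSRGN. Its hypoxia and control libraries overlapped, with a log2 fold change of 0.05 (SE 0.08, adjusted p = 0.598) and an interval of -0.11 to 0.22. The ratio of Col5a1 to Col11a1 per kilobase was 6.24 to 7.46 in control and 11.6 to 13.5 in hypoxia, ranges that did not overlap. Col2a1 (chr15:97975602-98004695), the cartilage collagen chain, had 16.99, 20.8 and 13.96 CPM in control, 26.1, 18.6 and 20.6 in hypoxia and 25.3, 25.1 and 22.1 in hypoxia + rSRGN. The groups overlapped, and the log2 fold change of 0.33 (SE 0.14, adjusted p = 0.0333) stayed under the fold limit. With an offset for GC content and gene length, chosen after seeing the data, the log2 fold change of Col11a1 was 0.51, outside its interval above, that of Col2a1 was 0.12, and those of Col1a2 and Col3a1 became 1.39 and 1.09.

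**Figure D2:**
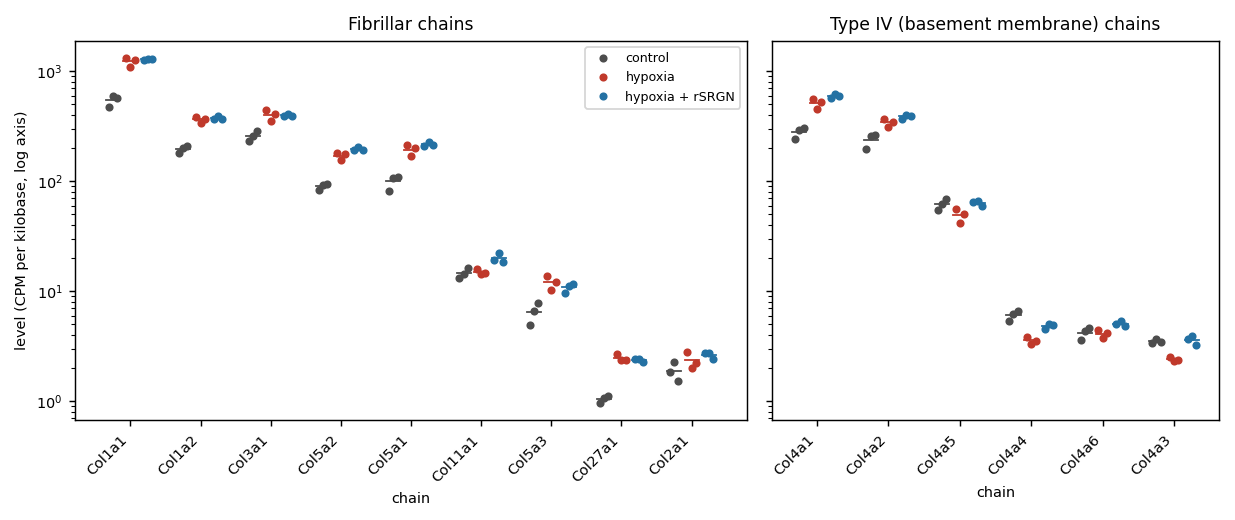
Level in CPM per kilobase (log axis) of the 9 fibrillar and 6 type IV chains with a mean of at least 10 CPM, in control, hypoxia and hypoxia + rSRGN. Each point is 1 library and each line is the mean of the 3 libraries of a group. Col1a1, Col1a2, Col3a1, Col5a1 and Col5a2 sit higher in both treated groups than in control, as does Col4a1, while Col4a4 and Col4a3 do not.

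The type IV chains did not move together. Of the 6 chains, Col4a1 was called higher in hypoxia, Col4a4 was called lower, and Col4a2, Col4a3, Col4a5 and Col4a6 were not called. Among all genes tested, 26.4% were called higher and 25.1% lower, so the number of calls in so small a class is near those shares. The median log2 fold change of the 6 was -0.18, against 0.93 for the fibrillar chains and 0.05 for all genes. The type IV median was -0.29 without control replicate 1, -0.11 without control replicate 3 and -0.097 without hypoxia replicate 2. With the same offset, the type IV median turned to 0.16 and the fibrillar median became 1.18. The 6 genes lie in 3 pairs, each pair head to head on opposite strands. Col4a1 and Col4a2 share 22 exonic bases on chromosome 8, Col4a4 and Col4a3 are separated by 71 bases on chromosome 1, and Col4a6 and Col4a5 by 1308 bases on chromosome X.

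The start region of Col4a1 and Col4a2 is shown because both abundant type IV chains are read outward from it. RefSeq places the start of Col4a1 at position 11312826 on the minus strand and the start of Col4a2 at 11312805 on the plus strand. The 30 bases chr8:11312801-11312830 of GRCm38.p6 are printed on the plus strand, from the RefSeq promoter table, and the capitals mark the 22 bases that lie in the first exons of both genes.
Col4a2 and Col4a1: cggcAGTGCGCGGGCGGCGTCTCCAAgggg
The promoter windows of this pair share 78 bases and hold no TATAAA. As fragments were counted without regard to strand, those from the 22 shared bases cannot be assigned to either gene, which touches 0.295% of the exonic length of Col4a1 and 0.332% of that of Col4a2.

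Col4a1 (chr8:11198423-11312826, minus strand) had 1799, 2207 and 2266 CPM in control, 4169, 3375 and 3928 in hypoxia and 4251, 4616 and 4466 in hypoxia + rSRGN. Every hypoxia library lay above every control library, and the log2 fold change was 0.87 (SE 0.09, adjusted p = 2.45e-08). Col4a2 (chr8:11312805-11449287, plus strand) had 1312, 1692 and 1741 CPM in control, 2453, 2078 and 2283 in hypoxia and 2449, 2661 and 2621 in hypoxia + rSRGN. Its hypoxia libraries also lay above control, but the log2 fold change of 0.52 (SE 0.09, adjusted p = 3.95e-05) was under the fold limit. It passed that limit with library size alone as the scaling (0.59) and without control replicate 3 (0.59). The ratio of Col4a1 to Col4a2 per kilobase was 1.15 to 1.22 in control, 1.44 to 1.53 in hypoxia and 1.51 to 1.54 in hypoxia + rSRGN. Thus the ratio of these paired genes was higher in all 6 treated libraries than in any control library.

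Col4a5 (chrX:141475385-141689234) and Col4a6 (chrX:141165403-141474076) encode chains of the basement membranes of kidney, smooth muscle and skin. Col4a5 had 370.4, 421 and 464 CPM in control, 373, 282 and 342 in hypoxia and 435, 447 and 402 in hypoxia + rSRGN. Its control and hypoxia libraries overlapped, and the log2 fold change of -0.33 (SE 0.09, adjusted p = 0.00329) did not reach the fold limit. Col4a6 had 28.7, 34.7 and 36.8 CPM in control, 35.5, 30.05 and 32.96 in hypoxia and 39.9, 42.6 and 38.8 in hypoxia + rSRGN. These groups overlapped too, with a log2 fold change of -0.02 (SE 0.10, adjusted p = 0.851). With the offset for GC content and gene length the values of Col4a5 and Col4a6 were -0.030 and 0.34. The ratio of Col4a1 to Col4a5 per kilobase was 4.37 to 4.72 in control, 10.1 to 10.8 in hypoxia and 8.79 to 9.99 in hypoxia + rSRGN.

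Col4a3 (chr1:82586921-82722059) and Col4a4 (chr1:82448423-82586849) encode chains best known from the glomerular basement membrane. Col4a4 had 56.4, 65.8 and 70.3 CPM in control, 40.4, 35.4 and 37.6 in hypoxia and 47.5, 53.5 and 51.7 in hypoxia + rSRGN. Every hypoxia library lay below every control library, and Col4a4 fell by 0.76 on the log2 scale (SE 0.09, adjusted p = 1.45e-07). With the offset for GC content and gene length its log2 fold change was -0.29, which is under the fold limit. Col4a3 had 33.8, 36.3 and 34.4 CPM in control, 25.3, 23.2 and 23.3 in hypoxia and 36.7, 39.1 and 32.4 in hypoxia + rSRGN. Its hypoxia libraries also lay below control, with a log2 fold change of -0.54 (SE 0.10, adjusted p = 3.37e-05) that missed the fold limit by a narrow margin. It passed that limit with a filter of at least 1 count over all libraries (-0.59) and was -0.11 with the offset. An antisense transcript, C430014B12Rik, overlaps 5.65% of the exonic length of Col4a3 and had 145 counts over the 9 libraries, against 5586 for Col4a3.

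Summed over the class, the fibrillar chains had 1218 ± 129 CPM per kilobase in control, 2402 ± 229.8 in hypoxia and 2519 ± 47.2 in hypoxia + rSRGN (SD, n = 3). The type IV chains had 595 ± 77.3, 915 ± 90.2 and 1062 ± 42.1. Both sums were higher in every hypoxia library than in any control library. The type IV sum was carried by Col4a1 and Col4a2, as the other 4 chains together had 76.03 ± 8.19, 59.6 ± 7.54 and 77.2 ± 4.08 CPM per kilobase. The ratio of the fibrillar to the type IV sum was 2.003 to 2.11 in control, 2.602 to 2.65 in hypoxia and 2.33 to 2.43 in hypoxia + rSRGN. The 3 ranges did not overlap, with hypoxia highest, control lowest and hypoxia + rSRGN between them. With Col15a1, Col18a1 and Col7a1 counted as basement membrane chains, the mean ratios were 1.87, 2.42 and 2.19. Without Col1a1, Col1a2 and Col3a1, the fibrillar sum gave mean ratios of 0.360, 0.436 and 0.425, where the ranges of hypoxia (0.435 to 0.438) and hypoxia + rSRGN (0.415 to 0.432) did not overlap but lay close together. These ratios are descriptions with no p, since classes were compared by their sums.

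**Figure D3:**
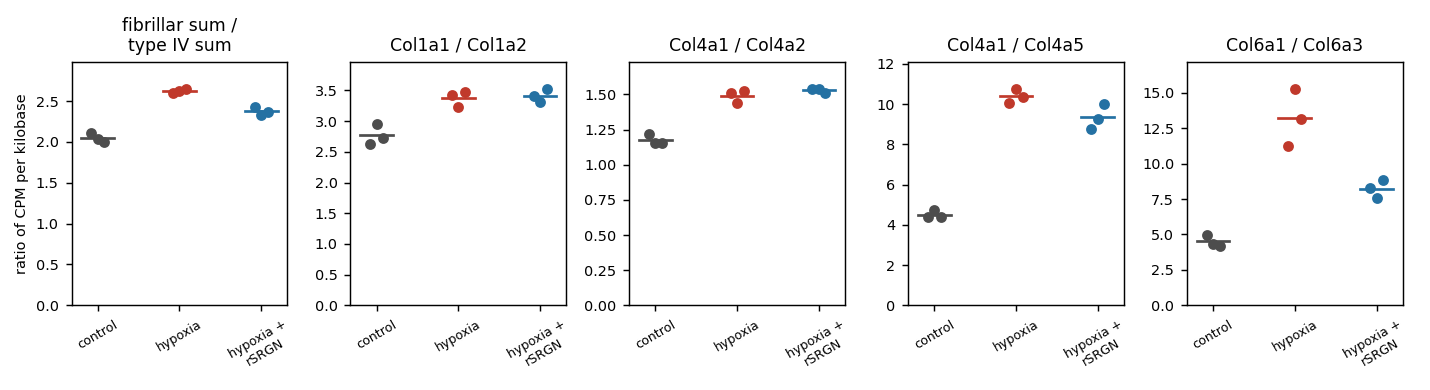
Ratios of levels in CPM per kilobase (y axes from 0) in each library of control, hypoxia and hypoxia + rSRGN, for the summed fibrillar over type IV chains and for 4 pairs of chains. Points are libraries and lines are group means. The fibrillar to type IV ratio is lowest in control and highest in hypoxia, and the ratio of Col6a1 to Col6a3 in hypoxia spans 11.2 to 15.3 against 4.22 to 4.94 in control.

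Adding rSRGN to the hypoxic cultures left the fibrillar chains without a call. In hypoxia + rSRGN against hypoxia, 0 of 11 fibrillar chains were called in either direction by edgeR and 0 by DESeq2, with 2 at an unadjusted p below 0.05 in edgeR. As 2.27% of all genes were called higher and 0.859% lower, a count of 0 is near those shares. The median log2 fold change of the 11 was 0.05. That median was -0.013 without hypoxia replicate 2, 0.117 without hypoxia replicate 1, 0.091 without hypoxia replicate 3 and -0.11 with the offset for GC content and gene length. For 10 of the 11, the 95% interval of the log2 fold change lay inside the fold limit in both directions, the exception being Col24a1 (-1.22 to 1.08). The intervals of Col11a1 (0.249 to 0.579) and Col11a2 (-0.561 to 0.296) ended close to that limit of 0.585, and somewhat wider intervals would cross it. The interval was -0.12 to 0.24 for Col1a1, -0.11 to 0.20 for Col1a2 and -0.19 to 0.17 for Col3a1. Their hypoxia and hypoxia + rSRGN libraries overlapped. Col11a1, which was not called in hypoxia, was above hypoxia in all hypoxia + rSRGN libraries, with a log2 fold change of 0.41 (SE 0.08, adjusted p = 0.00196) that was under the fold limit and became 0.21 with the offset.

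All 6 type IV chains had a value above 0 in hypoxia + rSRGN against hypoxia. Their median was 0.33, against -0.03 over all genes, and their range was 0.18 to 0.59. Of the 6, 1 was called higher (Col4a3), where the shares over all genes were 2.27% higher and 0.859% lower. Leaving out any single library gave type IV medians between 0.25 and 0.41, and the offset for GC content and gene length gave 0.24. The smallest values were those of the abundant chains Col4a1, 0.22 (SE 0.09, adjusted p = 0.116), and Col4a2, 0.18 (SE 0.09, adjusted p = 0.202). Hypoxia + rSRGN lay above hypoxia in every library for Col4a1 and overlapped it for Col4a2. Col4a3 had been at 25.3, 23.2 and 23.3 CPM in hypoxia and was at 36.7, 39.1 and 32.4 with rSRGN, a log2 fold change of 0.59 (SE 0.10, adjusted p = 0.000366). That value lies at the fold limit, and the call was lost without hypoxia replicate 2 (0.57), hypoxia replicate 3 (0.57), hypoxia + rSRGN replicate 1 (0.58) or hypoxia + rSRGN replicate 2 (0.53), with library size alone (0.57) and with the offset for GC content and gene length (0.43). Against control, Col4a3 differed by 0.05 (SE 0.09, adjusted p = 0.649), with overlapping libraries, and by 0.32 with the offset. The partner gene Col4a4 had a log2 fold change of 0.43 (SE 0.09, adjusted p = 0.00294) with rSRGN (0.27 with the offset), without overlap with hypoxia and under the fold limit. Col4a5 and Col4a6 had 0.37 (SE 0.09, adjusted p = 0.0102) and 0.30 (SE 0.10, adjusted p = 0.0469), and both lay above hypoxia in every library.

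Col12a1 and Col6a3 were the other chains called with rSRGN. Col12a1 (chr9:79598991-79718831, minus strand) encodes a long FACIT chain that sits on the surface of type I fibrils. It had 206, 224 and 247 CPM in control, 169.8, 158 and 140.5 in hypoxia and 287, 305 and 245 in hypoxia + rSRGN. All hypoxia libraries lay below control, with a log2 fold change of -0.53 (SE 0.09, adjusted p = 1.84e-05) under the fold limit, and all hypoxia + rSRGN libraries lay above hypoxia, with 0.84 (SE 0.09, adjusted p = 1.48e-05), a 1.79-fold rise. This call held in every alternative run, where the value ran from 0.61 to 0.93. The lower value in hypoxia passed the fold limit without control replicate 1 (-0.61) and without hypoxia replicate 1 (-0.60), and was -0.015 with the offset for GC content and gene length. Against control, hypoxia + rSRGN differed by 0.31 (SE 0.09, adjusted p = 0.00408), and the groups overlapped. With the offset that difference was 0.60 and was called.

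Col6a3 (chr1:90765923-90843971, minus strand) encodes the largest chain of type VI collagen, which forms beaded filaments next to cell surfaces together with the products of Col6a1 and Col6a2. It had 298, 376 and 389 CPM in control, 279.7, 216 and 239 in hypoxia and 388, 417 and 357 in hypoxia + rSRGN. In hypoxia it lay below control in every library, with a log2 fold change of -0.53 (SE 0.10, adjusted p = 5.83e-05) under the fold limit. It passed that limit as lower without control replicate 1 (-0.66), without hypoxia replicate 1 (-0.64) and with the filter of at least 1 count over all libraries (-0.59), and the value was -0.0016 with the offset. With rSRGN it rose by 0.66 (SE 0.10, adjusted p = 0.000188), without overlap with hypoxia. The call was lost without hypoxia replicate 2 (0.58) and with the offset for GC content and gene length (0.50). As a description, the Spearman correlation between exonic length and the log2 fold change with rSRGN was 0.32 over the 16762 genes and 0.21 over the 39 chains, all measured in the same libraries. For the GC content of the longest transcript it was -0.11 over the 16743 genes with a value and -0.40 over the 39 chains. The offset took GC content and length together, so the part of each in these 3 calls was not tested.

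The other major chains of type VI collagen behaved differently from Col6a3. Col6a1 (chr10:76708792-76726168) had 538, 600.4 and 600.4 CPM in control, 1151, 1209 and 1151 in hypoxia and 1172, 1162 and 1154 in hypoxia + rSRGN. Col6a2 (chr10:76595762-76623630) lies 85161 bases from it on the same strand of chromosome 10 and had 411, 489.6 and 488 CPM in control, 770.1, 684 and 745 in hypoxia and 755, 768 and 754 in hypoxia + rSRGN. Both were above control in every hypoxia library, by 1.01 (SE 0.07, adjusted p = 2.25e-11) and 0.66 (SE 0.08, adjusted p = 1.1e-07) on the log2 scale, and the call of Col6a2 was lost without control replicate 1 (0.56), while with the offset its value was 1.02. With rSRGN they changed by -0.01 and 0.05, with intervals of -0.15 to 0.13 and -0.10 to 0.20. The ratio of Col6a1 to Col6a3 per kilobase was 4.22 to 4.94 in control, 11.2 to 15.3 in hypoxia and 7.600 to 8.83 in hypoxia + rSRGN, ranges that did not overlap. Col6a6, a rarer chain, averaged 1.35 CPM in control and 0.945 in hypoxia and was not called.

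The FACIT chains attach to fibrils without forming fibrils themselves. Of 9 genes, 8 were tested and 6 were called higher in hypoxia, against 26.4% of all genes. Col16a1 (chr4:130047840-130099283), found in the matrix of skin and smooth muscle, had 113, 137 and 147 CPM in control, 336, 249 and 349 in hypoxia and 307, 334 and 319 in hypoxia + rSRGN. It rose by 1.23 (SE 0.11, adjusted p = 7.24e-10) with no overlap between hypoxia and control. Col14a1 (chr15:55307750-55520803), a FACIT chain related to Col12a1, had 119.5, 133 and 185 CPM in control, 144, 129 and 125 in hypoxia and 164, 192 and 163 in hypoxia + rSRGN. Its control and hypoxia libraries overlapped (log2 fold change -0.14, SE 0.11, adjusted p = 0.286, and 0.16 with the offset for GC content and gene length), and with rSRGN it lay above hypoxia by 0.39 (SE 0.11, adjusted p = 0.024), under the fold limit.

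Type IX chains are partners of type II collagen in cartilage. Col9a3 (chr2:180597790-180622189) had 6.52, 8.04 and 7.199 CPM in control, 19.1, 18.03 and 18.8 in hypoxia and 16.03, 18.7 and 17.3 in hypoxia + rSRGN. Hypoxia lay above control in every library (log2 fold change 1.36, SE 0.12, adjusted p = 1.02e-09), although 6.07% of its exonic length overlaps Tcfl5 on the opposite strand. Col9a1 rose by 0.71 (SE 0.14, adjusted p = 0.000113). Col9a2 was called as well (log2 fold change 0.86, SE 0.29, adjusted p = 0.012), with overlapping groups, and lost its call without control replicate 1, without control replicate 2, without hypoxia replicate 1 and with the GC and length offset. Col20a1 had the largest log2 fold change of the 39 chains in hypoxia against control, 2.12 (SE 0.23, adjusted p = 2.22e-08), at a mean of 1.57 CPM in control and 6.89 in hypoxia. It shares 79 exonic bases with 9230112E08Rik on the same strand, a transcript with 1245 counts over the 9 libraries against 814 for Col20a1. Col19a1, at 0.419 CPM in control and 1.12 in hypoxia, was called (log2 fold change 1.42, SE 0.48, adjusted p = 0.012) and lost the call without control replicate 2 (1.04).

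Col7a1, Col15a1 and Col18a1 encode chains at the edge of basement membranes. Col7a1 (chr9:108953586-108984875), whose product forms the anchoring fibrils of skin, had 26.4, 29.3 and 26.3 CPM in control, 88.8, 77.9 and 84.6 in hypoxia and 62.3, 72.3 and 70.6 in hypoxia + rSRGN. It rose by 1.62 (SE 0.09, adjusted p = 1.58e-13) in hypoxia, 3.06-fold, and was lower in every hypoxia + rSRGN library than in hypoxia, with a log2 fold change of -0.29 (SE 0.08, adjusted p = 0.0169) under the fold limit. Col18a1 (chr10:77052178-77166548), the precursor of endostatin, had 115, 141 and 145 CPM in control, 234, 221 and 231 in hypoxia and 249.9, 256 and 254 in hypoxia + rSRGN. It rose by 0.77 (SE 0.08, adjusted p = 1.27e-08) in hypoxia. Col15a1 (chr4:47208161-47313167), its relative in vessels and muscle, had 183, 231 and 254 CPM in control, 264, 231 and 232 in hypoxia and 269.7, 316 and 301 in hypoxia + rSRGN. Its control and hypoxia libraries overlapped (log2 fold change 0.12, SE 0.10, adjusted p = 0.26, and 0.32 with the offset), and hypoxia + rSRGN lay above hypoxia by 0.29 (SE 0.10, adjusted p = 0.0439).

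The short-chain collagens form hexagonal nets, as in the membrane under the corneal endothelium. Col8a1 (chr16:57624258-57754737) had 320.2, 310.3 and 347 CPM in control, 356, 311 and 322 in hypoxia and 455, 514 and 446 in hypoxia + rSRGN. Control and hypoxia overlapped (log2 fold change 0.02, SE 0.08, adjusted p = 0.867, and 0.32 with the offset), and every hypoxia + rSRGN library lay above hypoxia, by 0.52 (SE 0.08, adjusted p = 0.000188), under the fold limit. Col8a2 and Col10a1 averaged under 5 CPM and were not called in the 3 comparisons with the settings used throughout. In other settings, Col8a2 was called in hypoxia + rSRGN against control in 5 of 19 alternatives (0.57 to 0.66), and Col10a1 was called lower in hypoxia with only the groups compared (-1.10) and without hypoxia replicate 1 (-1.53). Of the transmembrane chains, Col13a1, Col17a1 and Col23a1 were tested and none was called in hypoxia against control or with rSRGN, with unadjusted p below 0.05 for 1 of them in each. Col17a1 was called in hypoxia + rSRGN against control, 1.80 (SE 0.45, adjusted p = 0.00136), at a mean of 0.426 CPM in control and 1.505 in hypoxia + rSRGN. Col26a1 was not called, at 0.822 CPM with rSRGN and 0.303 in hypoxia.

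In hypoxia + rSRGN against control, 8 of 11 fibrillar chains were called higher, the median being 1.13 on the log2 scale, and 2 of 6 type IV chains, with a median of 0.16 (0.095 without control replicate 1). Over all genes 24.1% were called higher, a share near that of the type IV chains. Col1a1 had 1.24 (SE 0.09, adjusted p = 8.11e-11), Col1a2 0.94 (SE 0.08, adjusted p = 7.73e-10) and Col3a1 0.62 (SE 0.09, adjusted p = 2.85e-06). Without control replicate 1, Col3a1 (0.54) and Col4a2 (0.58) fell under the fold limit, as did Col3a1 (0.58) with the filter of at least 1 count over all libraries. With the offset for GC content and gene length Col3a1 was at 0.94, Col5a3 (0.58) lost its call and Col11a1 (0.72) gained one, and Col2a1 gained one without control replicate 2 (0.63). Col24a1, not called here, was called in 7 of 17 alternatives. The called type IV chains were Col4a1, with 1.09 (SE 0.09, adjusted p = 7.77e-10), and Col4a2, with 0.70 (SE 0.09, adjusted p = 8.2e-07). Col4a4 remained below control in every library, at -0.33 (SE 0.09, adjusted p = 0.00241), under the fold limit, and was at -0.024 with the offset.

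Collagen chains need a set of enzymes and chaperones before and after secretion, and 31 genes of this kind were examined as a list. In hypoxia against control, 24 of the 31 were called higher and 1 lower, where the median change was 0.93 on the log2 scale and 26.4% and 25.1% of all genes were called higher and lower. The largest rises were in P3h3 and P3h2, members of the prolyl 3-hydroxylase family of the endoplasmic reticulum, at 1.65 (SE 0.08, adjusted p = 5.02e-14) and 1.52 (SE 0.13, adjusted p = 1.11e-09). The gene that fell was Adamts3, a protease that trims the amino-terminal propeptide of procollagen, at -2.15 (SE 0.30, adjusted p = 1.27e-06), from a mean of 4.21 to 0.941 CPM. With rSRGN, 0 of the 31 were called against hypoxia by edgeR and 1 by DESeq2, near the 2.27% higher and 0.859% lower of all genes. In edgeR 7 of the 31 had an unadjusted p below 0.05, and the median was -0.01. The summed level of the list was 1464 to 1576 CPM per kilobase in control, 3226 to 3463 in hypoxia and 3207 to 3334 in hypoxia + rSRGN.

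Of 15 genes for proteins that bind or space fibrils, 10 were called higher and 1 lower in hypoxia, against 26.4% and 25.1% of all genes. The median of the 15 was 0.93. Bgn and Dcn, the small leucine-rich proteoglycans biglycan and decorin, rose by 1.70 (SE 0.07, adjusted p = 6.23e-15) and 1.47 (SE 0.07, adjusted p = 4.02e-14). Ogn, a related proteoglycan, was lower, at -0.59 (SE 0.12, adjusted p = 0.000132). With rSRGN, 0 of the 15 were called against hypoxia by edgeR or DESeq2, near the 2.27% higher and 0.859% lower of all genes. In edgeR 5 of the 15 had an unadjusted p below 0.05, and the median was 0.00. Of 19 laminins, nidogens and other partners of type IV collagen, 4 were called higher and 6 lower in hypoxia, with a median of 0.11, where 26.4% of all genes were called higher and 25.1% lower. Lama3 and Lama2, laminin chains of epithelium and muscle, fell, at -2.46 (SE 0.35, adjusted p = 2.18e-06) and -1.55 (SE 0.09, adjusted p = 1.15e-12), while Smoc1 and Smoc2, calcium-binding proteins of basement membranes, rose by 1.04 (SE 0.26, adjusted p = 0.00121) and 0.79 (SE 0.09, adjusted p = 7.15e-08). With rSRGN, 1 of the 19, Lama2, was called higher, at 0.69 (SE 0.09, adjusted p = 6.71e-05), and 0 were called lower. Among all genes, 2.27% were called higher and 0.859% lower. The median of the 19 was 0.34. The summed level of these partners was 389.5 to 459 CPM per kilobase in control, 418 to 456 in hypoxia and 543 to 582 in hypoxia + rSRGN, where only the last range lay apart from the others.

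Of 10 collagen receptors tested, 2 were called higher and 3 lower in hypoxia, with a median of -0.17. These shares lie near those of all genes, 26.4% higher and 25.1% lower. With rSRGN, 0 were called by edgeR or DESeq2, near the 2.27% higher and 0.859% lower of all genes. In edgeR 5 receptors had an unadjusted p below 0.05, and the median was 0.34. Mrc2, an endocytic collagen receptor of mesenchymal cells, and Itga10, an integrin chain of cartilage, rose by 1.02 (SE 0.08, adjusted p = 9.23e-11) and 1.03 (SE 0.17, adjusted p = 1.25e-05). Adgrg1, an adhesion receptor that binds type III collagen, and Itga1, an integrin chain that binds type IV collagen, were lower, at -2.37 (SE 0.15, adjusted p = 3.09e-12) and -0.82 (SE 0.09, adjusted p = 6.02e-08).

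Marker genes of cell types moved with the same groups, and their part in the collagen values was not tested. Over all genes, 26.4% were called higher and 25.1% lower in hypoxia, and 2.27% higher and 0.859% lower with rSRGN against hypoxia. The labelled cells were present, as Myh6 and Tnnt2, which encode the contractile proteins of cardiomyocytes, averaged 17931 and 9312 CPM in control. All 13 cardiomyocyte markers were called lower in hypoxia, where the median change was -3.74 on the log2 scale, and their summed level was 14839 to 17553 CPM per kilobase in control, 1203 to 2009 in hypoxia and 2612 to 2955 in hypoxia + rSRGN. With rSRGN, 12 of the 13 were called higher than in hypoxia. Of 12 fibroblast markers, 9 were called higher and 0 lower in hypoxia, with a median of 1.01, and 0 were called higher and 1 lower with rSRGN (Tcf21, log2 fold change -0.76, SE 0.09, adjusted p = 3.85e-05). The summed level of the fibroblast markers was 917 to 991 CPM per kilobase in control, 2319 to 2465 in hypoxia and 2287 to 2413 in hypoxia + rSRGN. Relative to that sum, the fibrillar sum was 1.17 to 1.35 in control, 0.925 to 1.096 in hypoxia and 1.04 to 1.100 in hypoxia + rSRGN, and the type IV sum was 0.553 to 0.672, 0.353 to 0.421 and 0.442 to 0.472. Both of these ratios were lower in every hypoxia library than in any control library.

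Of 11 endothelial markers, 1 was called higher and 7 lower in hypoxia, while the summed level was 61.5 to 67.6 CPM per kilobase in control, 114 to 133 in hypoxia and 129.9 to 133 with rSRGN, where 1 was called higher. The median was -0.90 and thus opposite in sign to the sum, which was mostly Eng, named here after its values were seen, at 175 CPM in control and 435 in hypoxia. All 6 epicardial markers were called higher in hypoxia, with a median of 2.06 and sums of 73.4 to 83.4, 295 to 323 and 277 to 303, and with rSRGN 0 were called or had an unadjusted p below 0.05. Of 9 macrophage markers, 8 were called lower, with sums of 165 to 175, 15.2 to 18.1 and 18.6 to 23.1, and with rSRGN 0 were called by edgeR or DESeq2 and 2 had an unadjusted p below 0.05 in edgeR. Of 9 mural cell markers, 1 was called higher and 1 lower in hypoxia, both smaller shares than over all genes, and 2 were called higher with rSRGN, with sums of 735 to 861, 1001 to 1145 and 895 to 945. No marker of these lists was at 0 in all libraries of a group.

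**Figure D4:**
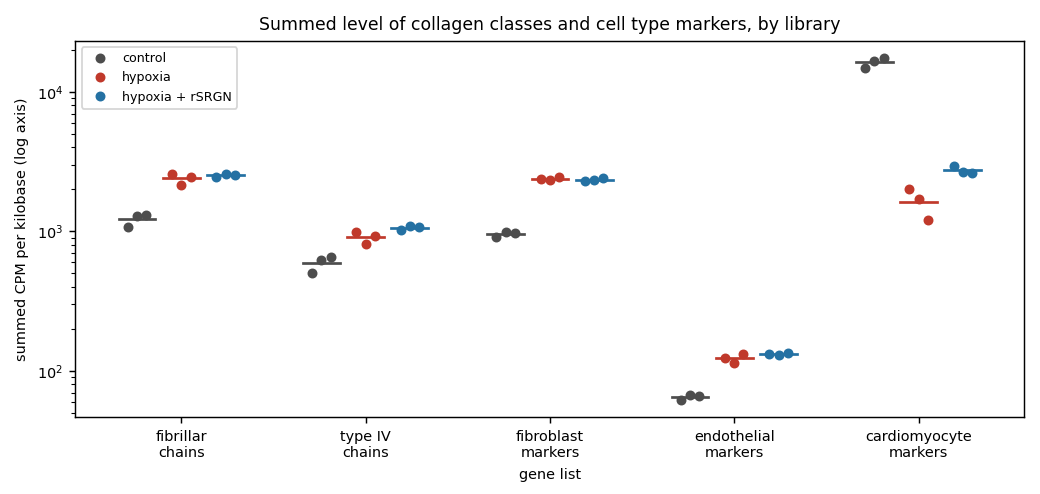
Summed CPM per kilobase (log axis) of the fibrillar chains, the type IV chains and 3 cell type marker lists, in each library of control, hypoxia and hypoxia + rSRGN. Points are libraries and lines are group means. The collagen sums and the fibroblast and endothelial marker sums are higher in hypoxia than in control in every library, and the cardiomyocyte marker sum is lower.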

How the data were processed

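The values that the authors deposited are raw fragment counts for each gene. Per the file headers, exons were counted in paired-end mode by featureCounts 2.0.1 with GENCODE release 25 (GRCm38) and without a strand setting, and the submitters' processing notes name HISAT2 and mm10. Overlapping and antisense genes, and closely similar copies, are therefore uncertain. All 9 count columns were used. The paper describes hearts and not these cultures. Members and gene lists were chosen with earlier results of these data known.

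The fit used edgeR 4.0.16 in R 4.3.3 (filterByExpr, TMM, quasi-likelihood test, Benjamini-Hochberg over 16762 genes, 1 mean per group over 9 libraries), after a test on simulated data. Calls needed 1.5-fold or more and an adjusted p under 0.05. The test gives no SE, so the SE was taken as the absolute log2 fold change over the square root of the F statistic. Intervals are the estimate plus or minus 1.96 SE, a normal value, and can be narrower than the test implies. For Col10a1 in hypoxia against control, the interval (-2.13 to -0.058) left out 0, while the unadjusted p of the quasi-likelihood test was 0.0508. Any 2 libraries of a group differed by more than sampling noise (chi-square of 3.74 to 14.2 per degree of freedom), and each was kept. Per-library values were given for chains with a mean of at least 10 CPM or called with rSRGN, and from each gene list up to 4 called genes without overlap and with at least 1 CPM were named by size of change. Cell type lists were given by counts, medians and sums. A further marker list is not reported here. Promoters came from the RefSeq table of GRCm38.p6 and exon overlaps from the exons listed with the deposited counts. GC content was that of the longest transcript of each gene in GENCODE release 21. Alternatives were DESeq2 1.42.0, RLE scaling, library size alone, other count filters, unadjusted P, no fold limit, only the groups compared, a replicate block, each library left out and, chosen after seeing the data, a GC and length offset (16743 genes with a GC value). Figures were drawn with matplotlib 3.10.9.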

Additional observations from a re-analysis of the deposited data

How the results depend on the processing

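The count of 20 chains higher in hypoxia against control stayed within 1.5 times under every alternative run (16 to 21 with 1 library left out). The count of 1 lower chain became 3 with a filter of at least 1 count, 5 without a fold limit, 2 with only the groups compared and 0 with the GC and length offset, and ran from 1 to 4 with 1 library left out, the highest without hypoxia replicate 1 and 3 without control replicate 1. With 1 library left out the type IV median ran from -0.287 (without control replicate 1) to -0.097 (without hypoxia replicate 2). The offset turned it from -0.18 to 0.157 and moved the fibrillar median from 0.93 to 1.18, and the cause was not tested. For hypoxia + rSRGN against hypoxia, the 3 higher chains became 5 by unadjusted P, 10 when no fold limit applied (and 1 lower) and 1 with the offset, and 1 to 3 with 1 library left out, the lowest without hypoxia replicate 2. The fibrillar median of 0.05 became -0.11 with the offset and ran from -0.013 (without hypoxia replicate 2) to 0.117 (without hypoxia replicate 1), and over all genes the 525 calls became 899 by unadjusted P, 2790 with no fold limit and 321 without hypoxia replicate 3. For hypoxia + rSRGN against control, 1 chain was lower without a fold limit, the fibrillar median was 1.27 with the offset and 1.00 to 1.14 with 1 library left out, and the type IV median of 0.16 was 0.43 with the offset and 0.095 (without control replicate 1) to 0.225 (without control replicate 3) with 1 library left out. The ratio of fibrillar to type IV sums had means of 2.05, 2.63 and 2.37. These became 1.87, 2.42 and 2.19 with Col15a1, Col18a1 and Col7a1, and 0.360, 0.436 and 0.425 without Col1a1, Col1a2 and Col3a1.

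Single chains were recomputed 2200 times. In 2111 cases the call stood as before, in 52 it was gained, in 37 it was lost, and in 0 did a called chain change sign. In 78 of 1298 cases in which a chain was called neither before nor after, the value changed sign. Same-numbered libraries did not deviate together over all genes (correlations of -0.0374 to 0.0215). With 3 libraries per group this cannot exclude a shared origin with small or gene-specific effects, on which the labels are silent. With the replicate block, 20, 3 and 22 chains were called higher in the 3 comparisons and 1, 0 and 0 lower. Chains under about 1 CPM, such as Col24a1 and Col19a1, had standard errors of 0.48 or more in hypoxia against control, which limits what they can show.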
